A study of Populus yunnanensis with 9 samples.

Results

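Condensed tannins (proanthocyanidins) are flavonoid polymers that poplar leaves store in large amounts, where they are known as defence compounds and as binders of protein and metal ions. They are built from dihydroflavonols, which flavanone 3-hydroxylase (F3H) makes, by the successive action of dihydroflavonol reductase (DFR) and leucoanthocyanidin reductase (LAR), or of DFR, anthocyanidin synthase (ANS) and anthocyanidin reductase (ANR). In poplar, the R2R3-MYB transcription factors MYB134 and MYB115 are known activators of these enzyme genes.

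Transcripts of 10 genes of this pathway were followed, 8 for enzymes and 2 for regulators, out of 41335 genes measured. They were chosen by identifier. The enzyme genes were F3H (Potri.005G113900.v3.0), DFR1 (Potri.002G033600.v3.0), DFR2 (Potri.005G229500.v3.0), ANS (Potri.003G119100.v3.0), ANR1 (Potri.004G030700.v3.0), LAR1 (Potri.008G116500.v3.0), LAR2 (Potri.010G129800.v3.0) and LAR3 (Potri.015G050200.v3.0). The regulator genes were MYB134 (Potri.006G221800.v3.0) and MYB115 (Potri.002G173900.v3.0). The deposited data list identifiers alone, so these names came with the list of identifiers and were not checked against an annotation. All 10 genes passed the filter on low counts, as did 27378 genes in all.

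Leaves of Yunnan poplar (Populus yunnanensis), labelled as seedlings and grown from cuttings, were sequenced in 9 libraries, 3 for each of 3 groups. The control (CK) received neither Cd nor N. The Cd group received CdCl2 every 5 d for 60 d, up to 480 mg Cd per kg dry soil. The Cd + N group received the same Cd together with NH4HCO3, up to 360 mg N per kg, so that every plant given N was also given Cd. The cuttings were taken from several wild trees and shared pots, and the sources used here do not say which trees or pots gave which library. Tree of origin and library therefore cannot be told apart, and p-values measure the spread between these libraries. Counts on genes ranged from 31952278 to 40101176 per library. Leaf markers were not assigned, since no annotation of the identifiers was used, and the tissue label was not checked.

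Levels are given as TMM-normalized CPM, that is reads of a gene relative to all reads on genes, after edgeR's scaling between libraries. In bulk leaf tissue, fewer cells that make tannin and less RNA per cell cannot be told apart. The main pattern was that most enzyme genes were low together in the same 3 libraries, 1 from each treatment group. Over the other 6 libraries, correlations between enzyme genes ranged from -0.58 to 0.96. MYB134 was the only 1 of the 10 genes whose libraries separated in any comparison of 2 groups, being lower under Cd + N treatment than in CK, and that difference did not pass the adjusted threshold. Over all genes tested, the libraries did not overlap for 14.7% in Cd over CK, 17.6% in Cd + N over Cd and 26.2% in Cd + N over CK, so 1 of 10 genes was no more than the background. The comparisons are written Cd/CK for Cd over CK, and likewise Cd + N/Cd and Cd + N/CK. In none of them did any of the 10 genes pass an adjusted p of 0.05 (edgeR's quasi-likelihood test, adjusted over 27378 genes after Benjamini and Hochberg).

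**Figure D1:**
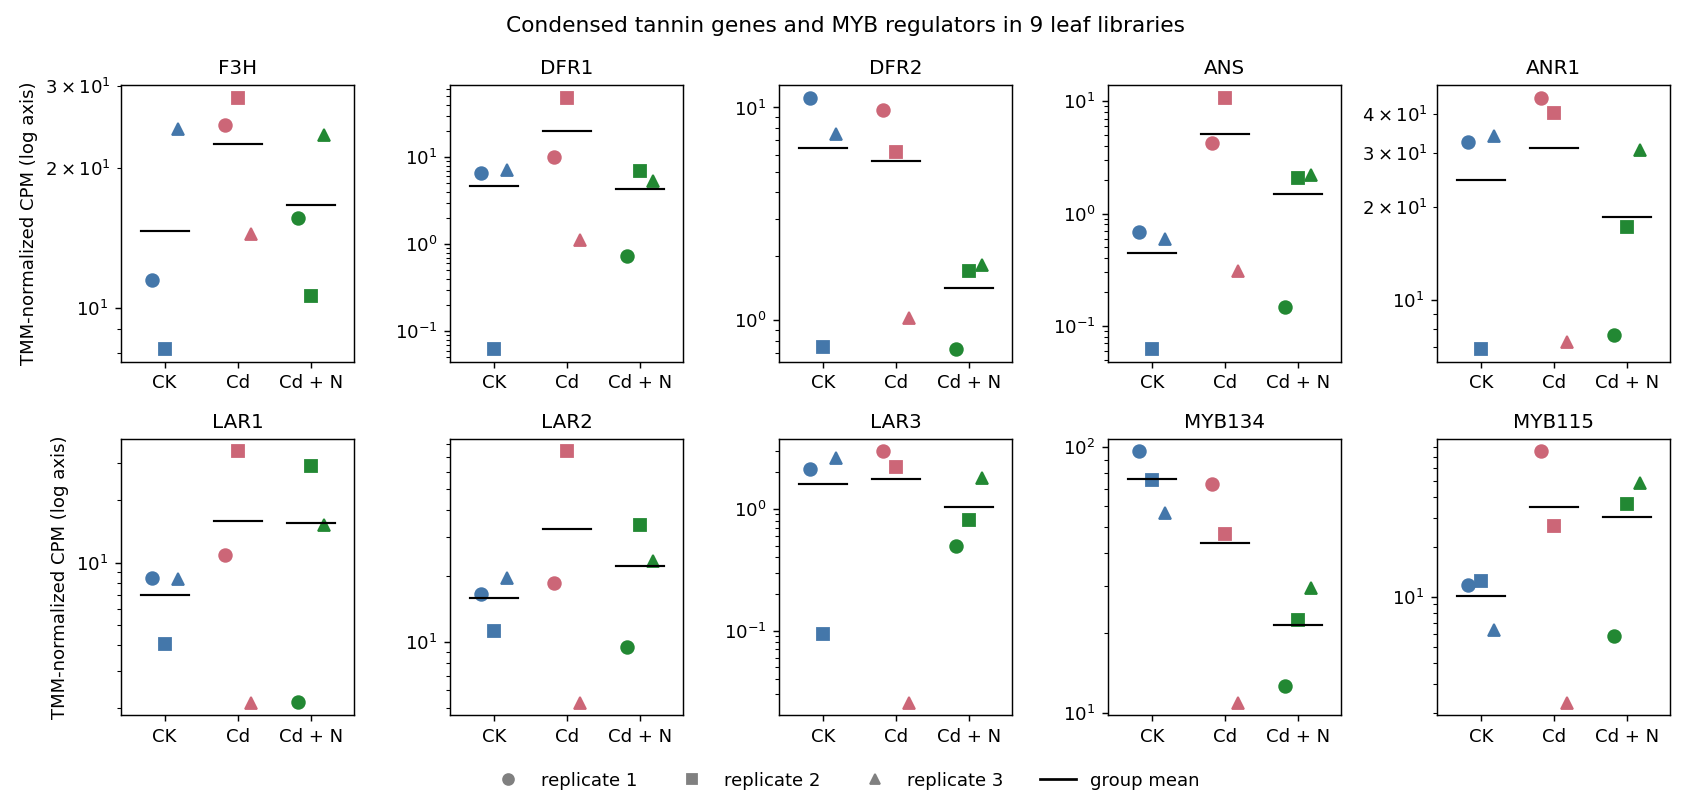
Level of each of the 10 genes in TMM-normalized CPM on a log axis, with 1 point per library, a symbol for the replicate number and a line at the group mean (n = 3). For most enzyme genes CK replicate 2, Cd replicate 3 and Cd + N replicate 1 lie below the other 6 libraries, while MYB134 lies between 56.5 and 96.8 CPM in CK and between 12.6 and 29.5 CPM under Cd + N.

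MYB134, an activator of the whole tannin branch, stood at 96.8, 75.6 and 56.5 CPM in CK replicates 1, 2 and 3. It stood at 73.1, 47.1 and 10.95 CPM under Cd stress and at 12.6, 22.4 and 29.5 CPM under Cd + N treatment. All 3 Cd + N libraries were below all 3 CK libraries, whereas the Cd libraries spanned nearly the whole range, with replicate 3 the lowest of all 9. The group means were 76.3 ± 20.2, 43.7 ± 31.2 and 21.5 ± 8.45 CPM in CK, Cd and Cd + N (SD, n = 3 each). In Cd + N/CK the fitted log2 fold change was -1.83 ± 0.61 (SE), which is a level 0.282 times that of CK (unadjusted p = 0.0158 and adjusted p = 0.198 by edgeR's quasi-likelihood test). The change therefore did not pass the threshold in that test, although DESeq2 gave an adjusted p of 0.0320. When single libraries were left out, the value stayed between -2.12 and -1.56. Its adjusted p by edgeR lay between 0.102 and 0.539 in these fits, and was 0.170 with the replicate number as a block. Cd stress alone gave -0.80 ± 0.59 against CK (SE, adjusted p = 0.679 by edgeR), and Cd + N/Cd gave -1.02 ± 0.60 (SE, adjusted p = 0.511 by edgeR). These values depended on single Cd libraries. Without Cd replicate 1 they were -1.38 and -0.45, and without Cd replicate 3 they were -0.35 and -1.47.

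MYB115, the related activator of the same branch, had higher means in both treated groups than in CK, unlike MYB134, but with a spread that covered the difference. It stood at 11.8, 12.4 and 6.34 CPM in CK, at 75.5, 26.7 and 2.30 CPM under Cd stress and at 5.82, 36.3 and 48.5 CPM under Cd + N treatment. In 4 of the 6 treated libraries it lay above every CK library, and in Cd replicate 3 and Cd + N replicate 1 it lay below every CK library. The groups overlapped in all 3 comparisons. The log2 fold change was 1.77 ± 1.07 in Cd/CK and 1.57 ± 1.07 in Cd + N/CK (SE, adjusted p = 0.614 and 0.471 by edgeR). In Cd + N/Cd it was -0.20 ± 1.04, and its 95% interval from -2.58 to 2.17 reached far to both sides of 0. Cd replicate 1 weighed most, since the value of Cd/CK was 0.52 without it and that of Cd + N/Cd was 1.05.

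Within a treated group the pair of regulators kept the same order of libraries. Under Cd stress both were highest in replicate 1 and lowest in replicate 3, and under Cd + N treatment both were highest in replicate 3 and lowest in replicate 1. The ratio of MYB115 to MYB134 in CPM was then computed in each library, a choice made after these values were seen, so no test is given. It was 0.122, 0.164 and 0.112 in CK, 1.03, 0.566 and 0.210 under Cd stress and 0.461, 1.62 and 1.65 under Cd + N treatment. Every CK library was thus below every treated library, although the lowest Cd library was close to the highest CK library. On the log2 scale the ratio was -2.94 ± 0.29 in CK, -1.01 ± 1.16 in the Cd group and 0.10 ± 1.05 in the Cd + N group (SD, n = 3 each). A ratio within a library does not depend on the scaling between libraries, and shows only that the levels of these genes differed by unequal amounts.

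**Figure D2:**
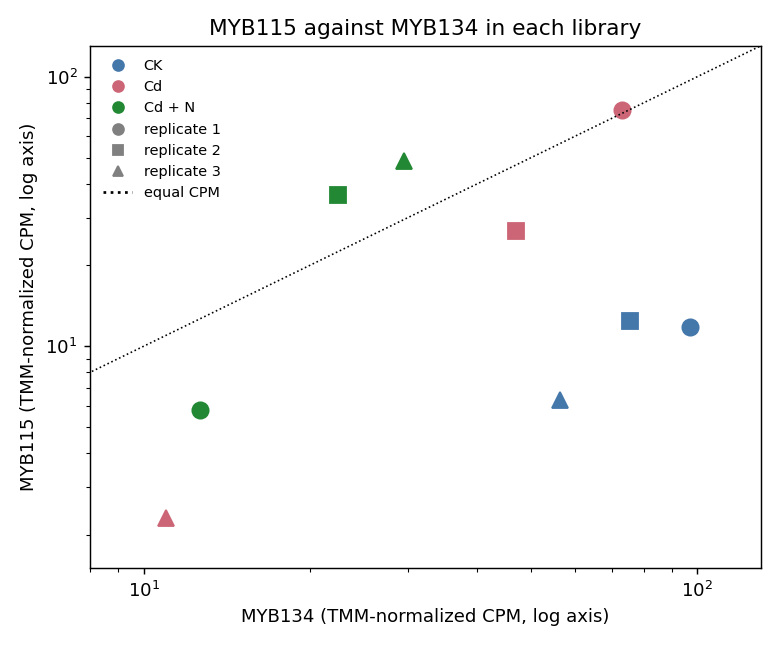
MYB115 against MYB134 in each of the 9 libraries, both in TMM-normalized CPM on log axes, with colours for the groups, symbols for the replicate numbers and a dotted line of equal CPM. The 3 CK libraries lie farthest below the line, at ratios from 0.112 to 0.164, and Cd replicate 1, Cd + N replicate 2 and Cd + N replicate 3 lie on its upper side.

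Among the enzymes, F3H, which acts before the tannin branch and also serves flavonols and anthocyanins, varied least. It stood at 11.5, 8.14 and 24.2 CPM in CK, at 24.8, 28.4 and 14.4 CPM under Cd stress and at 15.7, 10.6 and 23.6 CPM under Cd + N treatment. The 3 groups overlapped, and its log2 fold changes lay between -0.44 and 0.62 in the 3 comparisons. Its 95% interval for Cd/CK ran from -0.42 to 1.66, so a fall by more than 0.42 on the log2 scale lay outside it.

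DFR reduces dihydroflavonols to leucoanthocyanidins, the step that commits the pathway to tannins and anthocyanins. DFR1 stood at 6.59, 0.0622 and 7.18 CPM in CK, at 9.92, 48.3 and 1.12 CPM under Cd stress and at 0.731, 6.87 and 5.27 CPM under Cd + N treatment. Cd replicate 2 alone held 1822 reads of this gene, while CK replicate 2 held 2, so the Cd mean of 19.8 ± 25.1 CPM (SD, n = 3) rested on 1 library. The log2 fold change in Cd/CK was 2.10 ± 1.49 (SE, adjusted p = 0.670 by edgeR), and it was 0.25 without Cd replicate 2.

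DFR2 had a different order of libraries from its paralog. It stood at 11.1, 0.746 and 7.52 CPM in CK, at 9.71, 6.15 and 1.02 CPM under Cd stress and at 0.731, 1.71 and 1.83 CPM under Cd + N treatment. The Cd + N libraries were all low, but CK replicate 2 and Cd replicate 3 were as low. The log2 fold change was -2.18 ± 1.00 in Cd + N/CK and -1.98 ± 1.00 in Cd + N/Cd (SE, adjusted p = 0.309 and 0.450 by edgeR). In Cd + N/CK this was the lowest value of the list, and in Cd + N/Cd only DFR1 was lower, at -2.20 ± 1.501 (SE, adjusted p = 0.577 by edgeR). That order rested on Cd replicate 2, without which DFR1 was at -0.35 and DFR2 at -1.90. None of these passed the threshold.

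The share of DFR2 in the summed FPKM of DFR1 and DFR2 was 52.9%, 88.8% and 41.0% in CK, 39.4%, 7.79% and 37.6% under Cd stress and 39.9%, 14.2% and 18.7% under Cd + N treatment. FPKM is the count per length of the gene and per total of the library. All CK libraries were above all treated libraries, with a gap of little more than 1 percentage point between CK replicate 3 and Cd + N replicate 1. The means were 60.9 ± 24.9%, 28.3 ± 17.8% and 24.3 ± 13.7% (SD, n = 3 each). Without CK replicate 2 the difference from CK went from -32.6 to -18.7 percentage points for Cd and from -36.6 to -22.7 percentage points for Cd + N. The two-sided exact permutation p was 0.10 for Cd/CK and for Cd + N/CK, the smallest that 3 against 3 libraries can give, and 1.0 for Cd + N/Cd. In CK replicate 2 the share rested on 26 reads of both genes, of which 24 were on DFR2 (92.3% of counts, exact Clopper-Pearson 95% interval from 74.9% to 99.1%). In CK replicate 3 and Cd + N replicate 1 the shares of counts were 51.1% (46.8% to 55.5%) and 50.0% (35.5% to 64.5%), so their intervals overlapped. Cd replicate 1 was at 49.5% (45.3% to 53.7%) and Cd replicate 3 at 47.6% (36.6% to 58.8%). Their intervals overlapped that of CK replicate 3 as well. These intervals cover counting error only.

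ANS, which oxidizes leucoanthocyanidins to anthocyanidins and so feeds ANR, was rare in CK. It stood at 0.680, 0.0622 and 0.589 CPM in CK, that is 26, 2 and 21 reads. It stood at 4.22, 10.8 and 0.306 CPM under Cd stress and at 0.146, 2.09 and 2.22 CPM under Cd + N treatment. The same 4 treated libraries that were above CK for MYB115 were above CK for ANS, and Cd replicate 3 and Cd + N replicate 1 were within the CK range. In Cd/CK the log2 fold change was 3.50 ± 1.36 (SE, unadjusted p = 0.0312 and adjusted p = 0.458 by edgeR), the largest of the list. It lay between 2.32 and 4.05 with each library left out, and the adjusted p was at least 0.223 in these fits. Over all alternatives the lowest adjusted p was 0.0871, by DESeq2. In Cd + N/CK it was 1.73 ± 1.30 (SE, adjusted p = 0.515 by edgeR).

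ANR1, which converts anthocyanidins to epicatechin-type units, was among the more abundant enzyme transcripts. It stood at 32.5, 6.90 and 34.1 CPM in CK, at 45.3, 40.5 and 7.30 CPM under Cd stress and at 7.69, 17.2 and 30.6 CPM under Cd + N treatment. One library in each group was at 6.90 to 7.69 CPM and the other 6 were at 17.2 CPM or above. The log2 fold change of Cd/CK was 0.34 ± 0.79 and that of Cd + N/Cd was -0.74 ± 0.80 (SE, adjusted p = 0.906 and 0.725 by edgeR).

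The LAR genes encode the reductase that yields catechin-type units. LAR1 stood at 8.44, 4.07 and 8.38 CPM in CK, at 10.9, 34.4 and 2.12 CPM under Cd stress and at 2.14, 29.1 and 15.2 CPM under Cd + N treatment. LAR2 stood at 16.5, 11.2 and 19.5 CPM in CK, at 18.6, 74.4 and 5.26 CPM under Cd stress and at 9.45, 34.1 and 23.4 CPM under Cd + N treatment. In both genes the treated libraries lay below and above the range of the CK libraries, with LAR2 in Cd replicate 1 the only value within it. The within-group SD of LAR1 was 2.51 CPM in CK, 16.7 CPM under Cd and 13.5 CPM under Cd + N, and the CK mean was 6.97 CPM against 15.8 and 15.5 CPM in the treated groups. The log2 fold change of LAR1 in Cd/CK was 1.18 ± 1.03 and that of LAR2 was 1.05 ± 0.83 (SE, adjusted p = 0.728 and 0.697 by edgeR). Without Cd replicate 2 both turned below 0, to -0.11 and -0.41.

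LAR3 had the lowest FPKM of the 3 LAR genes in every library. It stood at 2.14, 0.0932 and 2.61 CPM in CK, at 2.99, 2.23 and 0.0255 CPM under Cd stress and at 0.497, 0.814 and 1.80 CPM under Cd + N treatment. The lowest values were 3 reads in CK replicate 2 and 1 read in Cd replicate 3, so the level there was not measured with any precision. Its share in the FPKM of the 3 LAR genes was from 0.570% to 7.80% in CK, from 0.317% to 7.85% under Cd and from 0.982% to 4.27% under Cd + N. The groups overlapped, and the two-sided exact permutation p was 0.8 for Cd/CK, 0.9 for Cd + N/Cd and 0.5 for Cd + N/CK, where 0.10 is the smallest possible.

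Taken by comparison, 8 of the 10 genes had a log2 fold change above 0 in Cd/CK, where 50.9% of all genes tested had one, and the exceptions were DFR2 and MYB134. The median over the 10 genes was 0.84, against 0.01 over all genes. At an unadjusted p under 0.05, 1 of the 10 (ANS) differed, against 9.88% of all genes. At the adjusted threshold of edgeR's quasi-likelihood test 0 of the 10 differed, as did 0% of all genes. The libraries of Cd and CK overlapped for all 10, while they did not overlap for 14.7% of all genes. DESeq2, which called 1.8% of the genes it tested, called 0 of the 10, and edgeR with the replicate number as a block called 0 of the 10 and 0.0146% of all genes. A log2 fold change above 1 or below -1 was found for 5 of the 10 and for 11% of all genes. Of these 5, DFR1, LAR1 and LAR2 rested on Cd replicate 2, without which they were at 0.25, -0.11 and -0.41. Most enzyme genes were low in the same libraries, so the 10 genes are not independent observations.

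In Cd + N/Cd, 0 of the 10 genes had a log2 fold change above 0, against 47.9% of all genes. The median was -0.74, against -0.02 over all genes. This comparison and Cd/CK share the Cd libraries, which enter them with opposite sign. The sign was not stable for each gene: MYB115 turned to 1.05 without Cd replicate 1, and LAR1 and LAR2 turned to 1.27 and 0.91 without Cd replicate 2. At an unadjusted p under 0.05, 0 of the 10 differed by edgeR, against 12.5% of all genes, and 0 of the 10 were called at the adjusted threshold, against 0% of all genes. DESeq2 called 0 of the 10 and 3.07% of the genes it tested, and edgeR with the block called 0 of the 10 and 1.14% of all genes. A log2 fold change above 1 or below -1 was found for 4 of the 10 and for 12.8% of all genes. Of these 4, DFR1 and ANS were at -0.35 and -0.59 without Cd replicate 2, and MYB134 was at -0.45 without Cd replicate 1. The libraries overlapped for all 10, and did not overlap for 17.6% of all genes.

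In Cd + N/CK, 5 of the 10 genes were above 0 and 5 below, with a median of 0.04, and 49.8% of all genes were above 0. At an unadjusted p under 0.05, 1 of the 10 (MYB134) differed, against 17.1% of all genes. It was also the only 1 of the 10 whose libraries did not overlap, where 12.6% of all genes lay wholly lower under Cd + N. At the adjusted threshold edgeR called 0 of the 10 and 0.267% of all genes. With the replicate number as a block it called 5.27% of all genes and again 0 of the 10. DESeq2 called 1 of the 10, MYB134, and 6.14% of the genes it tested. A log2 fold change above 1 or below -1 was found for 5 of the 10 and for 16.9% of all genes, and libraries that did not overlap in either direction for 26.2% of all genes.

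**Figure D3:**
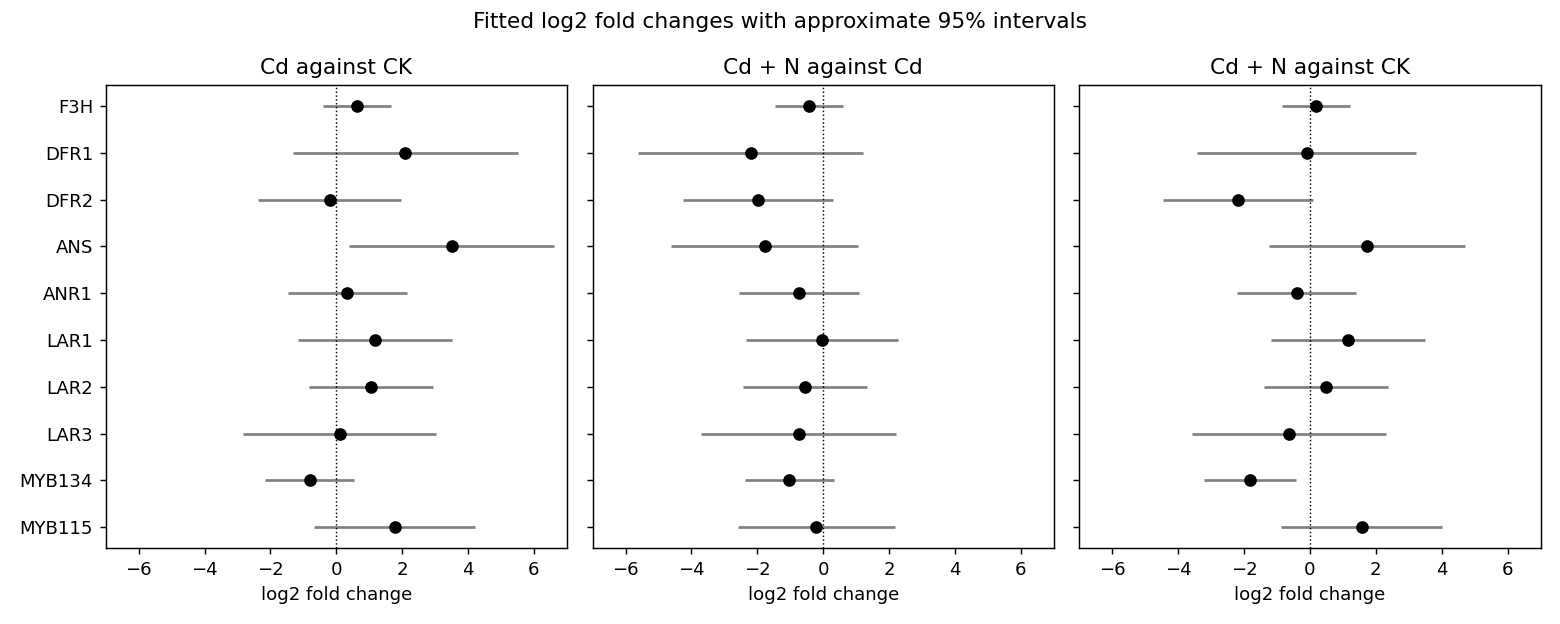
Fitted log2 fold change of each gene (points) with its approximate 95% interval (lines) in the 3 comparisons, from edgeR's quasi-likelihood fit on all 9 libraries. The intervals include 0 for all genes except ANS in Cd/CK (0.40 to 6.60) and MYB134 in Cd + N/CK (-3.21 to -0.44), and neither passed the threshold after adjustment.

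The wide intervals went with a wide spread between libraries of a group. The SD of log2 CPM within groups had a median of 1.62 over the 10 genes, against 0.34 over the 27378 genes tested. It was above the 90th percentile of all genes, 1.01, for 8 of the 10, with F3H (0.64) and MYB134 (0.93) as the exceptions. DFR1 (2.69), LAR3 (2.21) and ANS (2.05) were above the 99th percentile, 1.98. These are the genes with 1 to 3 reads in some libraries, where counting error adds to the SD. The percentiles are over genes of all levels. ANR1, LAR2 and MYB115, with mean levels of 4.29, 4.18 and 3.94 log2 CPM, had SDs of 1.27, 1.25 and 1.79. Differences between group means made up 50.9% of the variation of MYB134 in log2 CPM and 31.0% of that of ANS. They made up from 0.314% to 24.4% for the other 8 genes. With 3 libraries a group, such a share is above 0 even without an effect of treatment, so it does not measure one. The median share was 12.3% over the 10 genes and 33.5% over all genes, and of the 10 genes only MYB134 was above the latter. The standard error of a log2 fold change in Cd + N/CK had a median of 1.01 over the 10 genes and 0.28 over all genes.

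**Figure D4:**
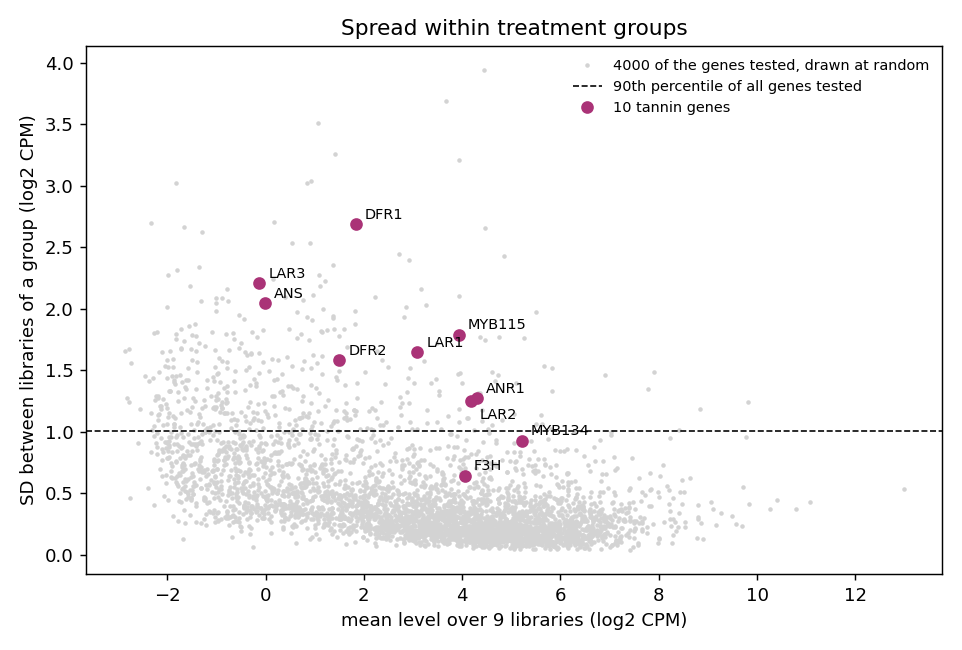
SD between libraries of a group in log2 CPM against the mean level of the gene, for the 10 tannin genes (labelled points) and a random draw of the genes tested (grey). Of the 10 genes, 8 lie above the dashed line at 1.01, the 90th percentile of all genes, and F3H and MYB134 lie below it.

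The libraries that were low were largely the same from enzyme to enzyme. CK replicate 2, Cd replicate 3 and Cd + N replicate 1 were the 3 lowest of the 9 libraries for 7 of the 8 enzyme genes, all but F3H, a pattern that was named after the values were seen. Over all genes tested these 3 libraries were the lowest for 0.552%. The summed level of the 8 enzyme genes was 31.3, 31.6 and 37.0 CPM in these libraries and from 89.5 to 245 CPM in the other 6. The highest sum was in Cd replicate 2, which was among the 3 highest libraries for 7 of the 8 enzyme genes. The low libraries were 1 from each treatment group and carried 3 different replicate numbers. Their totals of 33364795, 35703307 and 34294503 counts were within the range of the others, from 31952278 to 40101176. Their TMM factors were 0.965, 1.10 and 0.997, against factors from 0.912 to 1.09 in the others. The factor of Cd replicate 3 was thus the highest of all 9 libraries. The part of these technical values in the pattern was not tested.

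**Figure D5:**
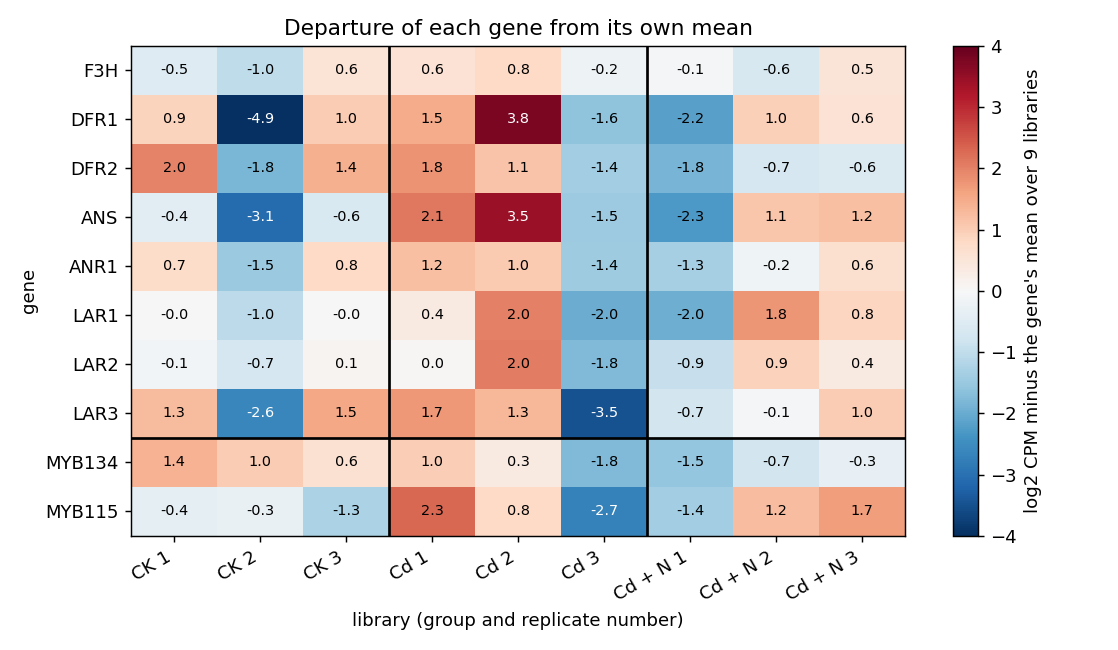
Departure of each gene from its own mean over the 9 libraries in log2 CPM (colour and printed value), with genes in rows, libraries in columns and lines between the groups and between enzymes and regulators. The columns of CK replicate 2, Cd replicate 3 and Cd + N replicate 1 are low for the enzymes from DFR1 to LAR3, and MYB134 is high in CK replicate 2 although the enzymes are low there.

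The regulators did not share this pattern in full. In Cd replicate 3 and Cd + N replicate 1, which had low enzyme transcripts, MYB134 and MYB115 were at their lowest and second lowest levels of the 9 libraries. In CK replicate 2, which had the lowest level of F3H, DFR1, ANS and ANR1, MYB134 was at 75.6 CPM, the second highest of the 9, and MYB115 was at 12.4 CPM, the highest of the CK libraries. Over the 9 libraries that level of MYB115 was in the middle of the order, below 4 of the treated libraries. Low enzyme transcripts were thus found both with low and with high transcript levels of MYB134.

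Since 3 libraries stood apart in the enzyme genes, the relations over all 9 libraries are given only as counts. All 16 pairs of a regulator and an enzyme gene had a Pearson r above 0 over the 9 libraries, with the 3 low libraries included. In a test of these pairs, 0 passed an adjusted p of 0.05 (exact permutation test, two-sided, Benjamini-Hochberg over 16 pairs). Over the other 6 libraries, 2 from each group, 1 of the 16 pairs passed it. MYB134 and DFR2 had a Pearson r of 0.97 (exact permutation p = 0.00139, adjusted p = 0.0222) and a Spearman rho of 1.0 (exact permutation p = 0.00278, adjusted p = 0.0444). Without the 2 libraries farthest from the median of MYB134, r was 0.97 over 4 libraries. Both genes were higher in CK than under Cd + N in these 6 libraries, so the relation cannot be told apart from the difference between groups. The 6 libraries were set apart after the enzyme levels were seen, DFR2 among them, so these p-values are not independent of that choice. Over these 6 libraries r was below 0 for MYB134 with ANS (-0.24), LAR1 (-0.68) and LAR2 (-0.44). It was also below 0 for MYB115 with DFR2 (-0.39) and LAR3 (-0.17), and above 0 for the other pairs. The median r with the 8 enzyme genes was 0.10 for MYB134 and 0.11 for MYB115. No other pair passed, and the highest r of MYB115 was that with ANS, 0.68 with a rho of 0.66 (exact permutation p = 0.135 and 0.175, adjusted p = 0.476 and 0.560), which was -0.40 without the 2 libraries farthest from the median of MYB115.

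Among the enzyme genes, all 28 pairs had an r above 0 over the 9 libraries. Of these, 13 passed an adjusted p of 0.05 by Pearson's r and 11 by Spearman's rho (exact permutation test, two-sided, adjusted over the 28 pairs and the pair of regulators), with the 3 low libraries included. The other 6 libraries were left after those lowest in these same genes were set aside, which narrows the range of levels. The r of the 28 pairs of enzyme genes had a median of 0.37, from -0.58 to 0.96, and 21 were above 0. None of the pairs passed an adjusted p of 0.05 over these 6 libraries in the same test. With so few libraries, chosen by the levels of these genes, that test cannot decide whether the genes vary together. LAR1, LAR2 and LAR3, and likewise DFR1 and DFR2, are paralogs, and how the counting treated reads that match several of them was not known.

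Levels between genes can be set side by side only per length. In CK the mean FPKM was 35.4 ± 8.58 for MYB134, 13.1 ± 7.97 for F3H, 11.5 ± 3.56 for MYB115 and 7.21 ± 4.53 for ANR1 (SD, n = 3 each). It was from 1.43 to 3.62 for LAR1, LAR2, DFR1 and DFR2 and at most 0.430 for ANS and LAR3. F3H, MYB115 and ANR1 overlapped in their FPKM. The lengths recovered from the deposited values ranged from 858 bases for MYB115 to 4995 for LAR2, against 1878 for LAR1. What these lengths measure was not established, so the order of genes that lie close to each other is uncertain.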

How the data were processed

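Read counts for each gene and FPKM values, which are counts scaled by a gene length and by the library total, were deposited by the authors. The processing notes of the submitters name Bowtie2 2.0.6 and TopHat2 2.0.12. The counting tool, genome build, strand setting and filters are not given in the sources used here, so reads of close paralogs may have been split in an unknown way. The sample labels gave the groups and the numbering of replicates.

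The counts were fitted in edgeR 4.0.16 under R 4.3.3 (TMM factors, filterByExpr with a minimum count of 10 and a minimum total of 15, quasi-likelihood test on all 9 libraries without a block). Adjustment followed Benjamini and Hochberg over all 27378 genes. A prior count of 2 was used for log2 CPM. Standard errors were obtained as the absolute fold change (log2) divided by the root of F, and gave the 95% intervals. Shares and correlations were tested with exact permutations in Python 3.11.15 with scipy 1.17.1, and plots were drawn with matplotlib 3.10.9.

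The alternatives were DESeq2 1.42.0, upper-quartile factors, no filter, a fit of 2 groups at a time, a replicate block, limma 3.58.1 on log2(FPKM + 1) and log2(FPKM + 0.1) for genes that reached an FPKM of 1 in 3 or more libraries, the first also without this filter, and leaving out each library. Correlations over 6 libraries were added after the data were seen. Scripts were tested on simulated data. The genes and tests were chosen with earlier results of these data known. All 10 genes were named by rule. Other genes of the pathway, leaf markers, promoter motifs and sequences were not reported, since no annotation was used here.

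Same-numbered libraries of CK and Cd + N deviated from their group means in the same direction, with correlations across genes from 0.12 to 0.32 in 3 pairs, all over the limit of 0.1. In Cd/CK and in Cd + N/Cd, 2 of 3 pairs were over it. Differently numbered libraries of 2 groups had correlations from -0.38 (CK replicate 1 with Cd replicate 2) to 0.27 (CK replicate 3 with Cd + N replicate 1). Cd replicate 3 with Cd + N replicate 1 (0.22) and Cd replicate 1 with Cd + N replicate 3 (0.20) were also over the limit. No other differently numbered pair was. Same-numbered pairs were thus over it more often, 7 of 9, with correlations from 0.045 to 0.44. The main fit did not use the numbers. With the number as a block, edgeR called 5.27% of all genes in Cd + N/CK, against 0.267% without it. In Cd + N/Cd it called 1.14%, against 0%. The labels do not say what a number shares.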

Additional observations from a re-analysis of the deposited data

How the results depend on the processing

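Of 504 refitted log2 fold changes, 20 of the 30 results kept their sign throughout, and 1 passed the threshold, that of MYB134 in Cd + N/CK by DESeq2, which raised the count of the 10 genes from 0 to 1. Under a replicate block none of the 10 genes was called (0 in each comparison), but the values of MYB115 and LAR1 in Cd + N/Cd turned to 0.35 and 0.041. Limma on log2(FPKM + 1), with and without the filter, gave 0.26 and 0.039 for them and 0.025 for DFR1 in Cd + N/CK. Limma on log2(FPKM + 0.1) gave 0.33, 0.042 and 0.41, and 0.0068 for DFR2 in Cd/CK. LAR3 did not pass the FPKM filter. With each library left out, the values that changed sign in Cd/CK ranged from -0.84 to 0.44 (DFR2), -0.10 to 0.80 (ANR1), -0.51 to 0.68 (LAR3), -0.11 to 1.69 (LAR1) and -0.41 to 1.55 (LAR2). In Cd + N/Cd they ranged from -0.75 to 1.05 (MYB115), -0.86 to 1.27 (LAR1) and -1.05 to 0.91 (LAR2), and in Cd + N/CK from -0.68 to 0.39 (DFR1) and -0.15 to 0.75 (F3H). The difference in the DFR2 share between Cd + N and Cd ranged from -14.3 to 1.55 percentage points, and that in the LAR3 share from -1.84 to 1.93 percentage points. What caused these sign changes was not tested. Over 6 libraries, 1 of 16 correlations of regulators with enzymes passed the threshold, against 0 over 9 libraries. The planned correlations over all 9 libraries with group means removed, on log2(FPKM + 1) or without 2 libraries are not given, since 3 libraries stood apart. Low counts limit LAR3, ANS and DFR1, with 1 to 3 reads in some libraries.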

Other observations

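The genes outside the list whose log2 CPM over the 9 libraries was most like the mean of the standardized levels of the 10 genes were Potri.001G113100.v3.0 (Pearson r = 0.98) and Potri.005G009100.v3.0 (r = 0.96). They were taken by a rule as the highest of 27378 genes, so r is a description of likeness over 9 libraries that share treatment, of which 3 stood apart in the enzyme genes, and no p is given. Their mean levels were 2.99 and -0.16 log2 CPM. The files do not pair these identifiers with names. Among the 10 genes themselves, r with this mean, of which each is a part, was highest for ANR1 (0.97) and lowest for MYB134 (0.54).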
